A study of Mus musculus with 6 samples.

Results

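The genes described here build ribosomes: 49 nucleolar and RNA polymerase I genes, typical targets of the transcription factor MYC, were picked by name from the normalized count table. All 49 were among the 55421 genes listed, and all passed the minimum mean of 10 normalized reads that left 13562 genes for testing. Their expression was measured by RNA sequencing in germinal centre B cells, the antigen-selected B cells that divide rapidly in lymphoid follicles. The comparison was between 3 wildtype libraries and 3 libraries from SFR KO mice. The SFR KO animals carry a deletion running from the first intron of Cd244 into Slamf6, which removes 7 genes of SLAM family receptors. Cells of both groups came from C57BL/6 mice with a GFP reporter. The mice received NP(18)OVA with alum, and GFP+ splenocytes were sorted on day 9. The labels give neither an age nor a cell type to which the deletion is limited, and they do not say that each sample is 1 mouse. The p-values therefore measure the spread between these samples, which may be technical.

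Ribosome production starts in the nucleolus, where RNA polymerase I copies the ribosomal RNA genes into a long precursor. Small nucleolar RNA-protein particles (snoRNPs) guide its chemical modification, and assembly factors cut it and add ribosomal proteins to give the small and the large subunit. MYC activates many of these genes, and in the germinal centre it marks the B cells that have received T cell help and are about to divide.

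MYC binds DNA at the E-box CACGTG, a palindrome that reads the same on both strands. RefSeq start-site windows of the build GRCm38.p6, each reaching from 250 bases before to 50 bases after an annotated start, were found for 44 of the 49 genes. In these windows 8 of 44 genes (18.2%) held CACGTG, against 1141 of 9640 tested genes with a window (11.8%). By window, since some genes have several starts, the shares were 8 of 53 (15.1%) and 1227 of 12229 (10.03%). The variant CACGCG, searched on both strands and thus also as CGCGTG, was in 17 of 44 genes (38.6%) and in 1923 of 9640 tested genes (19.9%). A match is a description of the letters and shows no binding. The windows below are shown because they hold the E-box, in capitals. Mybbp1a and Nop2 were the genes with it among the 10 with a window and the smallest p, and both had lower values in SFR KO libraries. Rrn3 and Wdr43, added after their values were seen, are the 2 with it whose difference was above 0.
Mybbp1a, chr11:72441077-72441376, plus strand: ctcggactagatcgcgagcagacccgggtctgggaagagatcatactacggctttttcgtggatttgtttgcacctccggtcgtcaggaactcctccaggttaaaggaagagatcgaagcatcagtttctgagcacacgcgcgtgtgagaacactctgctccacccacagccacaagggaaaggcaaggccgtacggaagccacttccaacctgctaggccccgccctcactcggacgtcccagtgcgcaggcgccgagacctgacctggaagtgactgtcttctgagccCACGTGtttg
Nop2, chr6:125131633-125131932, plus strand: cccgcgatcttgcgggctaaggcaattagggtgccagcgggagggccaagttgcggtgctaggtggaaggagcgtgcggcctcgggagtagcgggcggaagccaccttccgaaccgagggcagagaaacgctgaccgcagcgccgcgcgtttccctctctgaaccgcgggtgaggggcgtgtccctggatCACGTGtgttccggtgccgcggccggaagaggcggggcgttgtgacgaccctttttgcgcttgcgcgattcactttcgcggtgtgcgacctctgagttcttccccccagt
Rrn3, chr16:13780449-13780748, plus strand: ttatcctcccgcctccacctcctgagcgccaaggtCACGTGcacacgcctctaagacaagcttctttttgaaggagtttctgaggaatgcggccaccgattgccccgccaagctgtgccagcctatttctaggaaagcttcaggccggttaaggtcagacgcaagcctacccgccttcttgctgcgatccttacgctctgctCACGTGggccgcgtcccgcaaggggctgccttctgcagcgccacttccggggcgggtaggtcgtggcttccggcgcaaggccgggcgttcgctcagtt
Wdr43, chr17:71615965-71616264, plus strand: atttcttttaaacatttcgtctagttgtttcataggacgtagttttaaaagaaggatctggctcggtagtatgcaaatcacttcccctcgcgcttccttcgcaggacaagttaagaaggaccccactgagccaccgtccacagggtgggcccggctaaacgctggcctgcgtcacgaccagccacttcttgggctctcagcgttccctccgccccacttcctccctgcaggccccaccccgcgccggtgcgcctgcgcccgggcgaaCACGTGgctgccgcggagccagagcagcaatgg
Counted from the start site, the E-box began at position -60 in Nop2, at 41 in Mybbp1a and at 18 in Wdr43, and Rrn3 held 2 copies, at -215 and -48. The E-box was as frequent among the genes with lower values (6 of 33 with a window) as among those with higher values (2 of 11), 18.2% in both.

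The libraries held between 28269310 and 33053024 reads, recovered from the normalized values. The deleted genes were low as labelled, at 0 to 14.05 normalized reads in SFR KO libraries, and all 7 were below every wildtype library. Germinal centre B cell genes were present throughout, and 6 of these 12 genes were above 0 and 6 below. Bcl6, the defining transcription factor gene of these cells, was at 14732 to 16046 normalized reads in wildtype and at 13496 to 14235 in SFR KO libraries. The groups did not overlap, with SFR KO lower, for this gene alone (8.33%, against 11.9% of all tested genes). They did not overlap with SFR KO higher for 3 of the 12 (25%, against 9.78%). SFR KO 1 differed from SFR KO 2 and 3 with a chi-square per gene of 16.9 and 24.5, against 6.11 between SFR KO 2 and 3. The wildtype pairs lay between these, at 12.5 to 13.5, so SFR KO 2 and 3 were also unusually alike. In SFR KO 1 the summed level of 12 dividing-cell genes was 210424 normalized reads, below the 234408 to 251661 of the other 5 libraries. Much of that gap was Mki67, at 42712 in SFR KO 1 and at 62044 to 71884 in the others. Top2a was only slightly lower there (38591, against 39855 to 46135). Ccnb1 was higher in SFR KO 1 (4244) than in any wildtype library (3630 to 4067). Neutrophil genes summed to 6117 normalized reads in wildtype 1 and to 361.3 to 1801 in the other libraries. The 12 T cell genes summed to 7487 to 7873 normalized reads in wildtype and to 7868 to 10112 in SFR KO libraries, and Lck and Cd2 held most of those reads. On the log2 scale 9 of the 12 were above 0, with a median of 0.67, and 6 had an unadjusted p under 0.05, all higher. The defining marker Cd3e was at 46.7 to 94.8 normalized reads in wildtype and at 101.5 to 120.4 in SFR KO libraries, without overlap. The groups did not overlap for 3 of the 12 (25%), all higher, against 9.78% of all tested genes. The 3 genes below 0 were Cd2 (-0.03), Cd8a (-0.43) and Cd8b1 (-0.73). Resting follicular B cell genes summed to 23255 to 28374 in wildtype and to 18913 to 26056 in SFR KO libraries. Of these 10 genes 9 were below 0 (90%, against 50.7% of all tested genes), with a median of -0.30. Cd38 was above 0, at 0.56 (limma adjusted p = 0.0659). The 8 tested mitochondrial transcripts summed to 463408 to 660682 in wildtype and to 757052 to 760970 in SFR KO libraries. All 8 were higher with no overlap (100%, against 9.78% of all tested genes), with a median of 0.51. Of these, mt-Rnr1 and mt-Rnr2 had a limma adjusted p under 0.05, as did 0.465% of all tested genes. The part of these lists in the results that follow was not tested.

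Most ribosome biogenesis genes had slightly lower values in SFR KO cells, and none of the 49 passed the main test. A log2 difference below 0 was seen in 36 (73.5%), against 50.7% of all tested genes, and one above 0 in 13. The median was -0.07, against -0.00 over all tested genes. All differences lay between -0.34 (Rrp1b) and 0.13 (Gar1). Limma called 0 of the 49 at a Benjamini-Hochberg adjusted p under 0.05 over all tested genes, where 0.465% of tested genes were called, and 0.803% of those at least as abundant as the lowest of the 49. The smallest adjusted p among them was 0.115. At an unadjusted p under 0.05 there were 12 of 49 (24.5%), all lower, against 16.1% of all tested genes. The excess was lost or nearly so with upper quartile scaling (10.2% against 16.0%), with GC and length trends removed (10.2% against 13.1%) and without wildtype 3 (8.16% against 13.0%), SFR KO 2 (12.2% against 11%) or SFR KO 3 (12.2% against 13.1%). Of the tested genes, 9.07% were lower and 7.04% higher at that threshold. EdgeR called 0 of the 49, where it called 0.221% of genes, and DESeq2 called 1, where it called 4.84%. The DESeq2 call was Rrp1b, which was also the 1 gene of the 49 past an adjusted p of 0.05 in the authors' deposited table, where 4.8% of genes with a value passed.

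The groups did not overlap, with SFR KO lower, for 16 of the 49 genes (32.7%), against 11.9% of all tested genes. For 1 gene of the 49 (2.04%), Nop58, they did not overlap with SFR KO higher, against 9.78%. These genes are well expressed, with means of 701.7 to 30150 normalized reads. Among the 6475 tested genes with a mean at or above the lowest of the 49, 17.3% did not overlap with SFR KO lower and 9.75% with SFR KO higher. An unadjusted p under 0.05 was found in 21.5% of them, 13.9% lower and 7.57% higher. In that background 55.9% of genes had a difference below 0, against 73.5% of the 49. In bulk samples fewer cells of a type and less RNA per cell cannot be told apart.

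Standard errors ran from 0.05 to 0.10 on the log2 scale, and the median coefficient of variation within a group was 4.31% in wildtype and 4.08% in SFR KO libraries. For 41 of the 49 genes limma's unadjusted 95% interval lay within a 1.25-fold change either way. The intervals of the other 8, Rrp1b, Ppan, Polr1e, Ubtf, Rrp12, Rrp9, Noc3l and Wdr74, reached past a 1.25-fold lower level, and none reached a 1.25-fold higher one. The lowest bound was -0.53 (Rrp1b) and the highest 0.30 (Gar1).

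**Figure D1:**
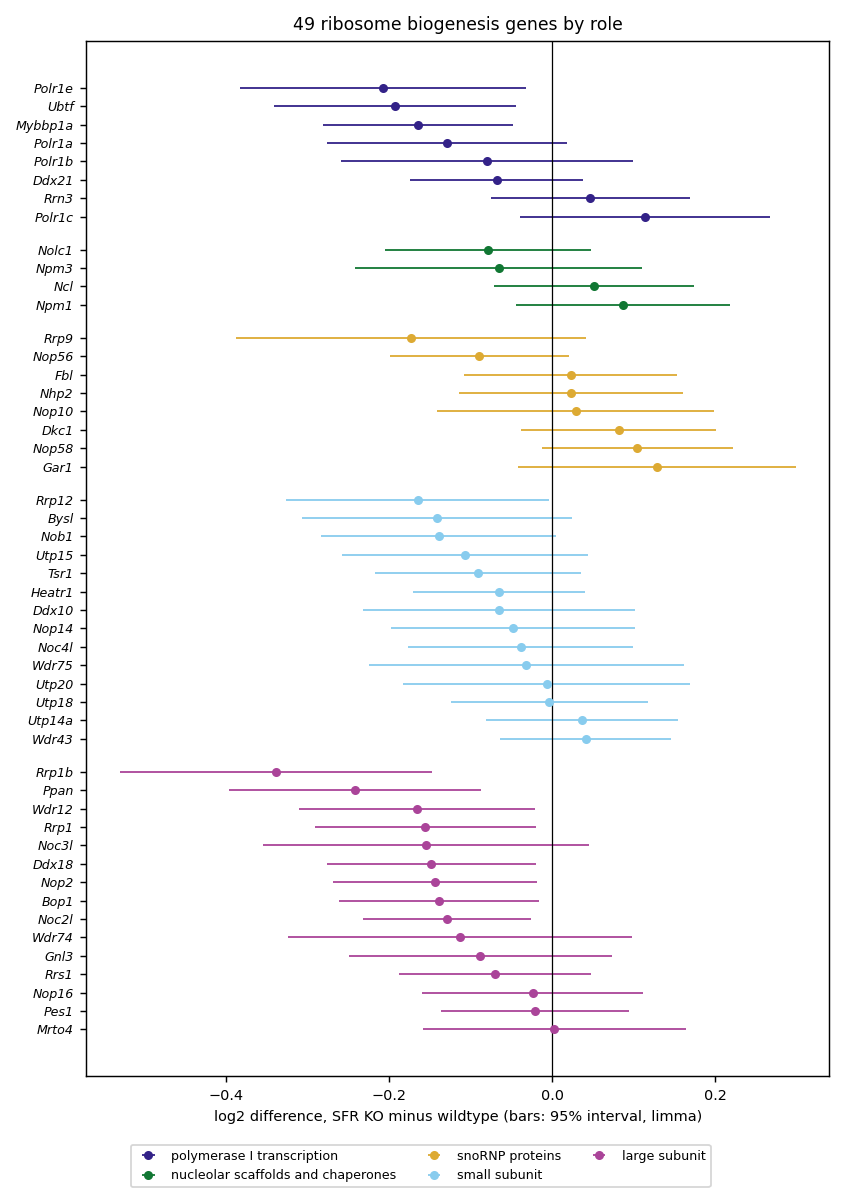
Log2 differences of the 49 genes, SFR KO minus wildtype, grouped by role on the vertical axis, with limma's unadjusted 95% intervals as bars (n = 3 libraries a group). Large subunit genes sit almost all left of 0, from -0.34 to 0.00, while snoRNP genes lie on both sides.

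Myc itself (chromosome 15, 61985391 to 61990374, GRCm38) fell. Its normalized reads were 1715, 1653 and 1614 (wildtype 1 to 3) against 1076, 1140 and 1282 (SFR KO 1 to 3). Every SFR KO library lay below every wildtype library. The log2 difference was -0.51 ± 0.07 (SE), or 0.701 times the wildtype level, with a limma adjusted p = 0.0322 (edgeR 0.0391, DESeq2 5.51e-06). The call was lost when any of 4 libraries was left out: the adjusted p was 0.177 without SFR KO 2, 0.124 without wildtype 1, 0.113 without wildtype 2 and 0.105 without wildtype 3. With each library's trend with GC content removed the difference was -0.47 ± 0.08 and the limma adjusted p 0.0818. Of the 9 tested genes for MYC and its partners, limma, edgeR and DESeq2 each called Myc alone, and 5 had a difference above 0.

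The factors that transcribe ribosomal RNA were mostly lower in value. Of 8 genes, 6 had a difference below 0, with a median of -0.10. In 3 of them, Polr1e, Ubtf and Mybbp1a, the groups did not overlap, against 11.9% of all tested genes and 17.3% of abundant ones. Limma, edgeR and DESeq2 called 0 of the 8. The same 3 had an unadjusted p under 0.05, against 9.07% of all tested genes and 13.9% of abundant ones in that direction. Ubtf, which encodes the factor that opens and bends the ribosomal RNA promoter, had 10688, 11290.1 and 11813 normalized reads (wildtype 1 to 3) against 9013, 10513 and 10084 (SFR KO 1 to 3). The highest SFR KO library was just below the lowest wildtype library. Its difference was -0.19 ± 0.07 (limma adjusted p = 0.212). Mybbp1a, a nucleolar regulator of polymerase I, had 8278, 8792 and 8302 normalized reads and then 7701, 7163 and 7783. The wildtype libraries again lay above, and the difference was -0.16 ± 0.05 (adjusted p = 0.177). With sample weights, which count libraries with more scatter less, the adjusted p of Mybbp1a was 0.0483, in a fit that called 4.65% of all tested genes.

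Polr1e, for an RNA polymerase I subunit, had 957.9, 922.1 and 1029 normalized reads (wildtype 1 to 3) against 895.7, 786.1 and 838.2 (SFR KO 1 to 3). SFR KO 2 was the lowest, and the difference was -0.21 ± 0.08 (limma adjusted p = 0.238). The catalytic subunit genes Polr1a and Polr1b were at -0.13 ± 0.07 and -0.08 ± 0.08, with overlapping groups. Polr1c, whose product polymerase I shares with polymerase III, went the other way at 0.11 ± 0.07 (adjusted p = 0.457). Rrn3, the initiation factor that brings polymerase I to its promoter, was at 0.05 ± 0.05, and the helicase gene Ddx21 at -0.07 ± 0.05.

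The abundant nucleolar scaffold and chaperone genes showed no shared direction. Ncl (nucleolin), a binder of ribosomal RNA precursors, had 28887, 31527 and 28458 normalized reads (wildtype 1 to 3) against 31328, 30187 and 30511 (SFR KO 1 to 3). These ranges overlapped, and the difference was 0.05 ± 0.05 (limma adjusted p = 0.698). Npm1 (nucleophosmin), a histone and ribosome chaperone, had 23982, 22764 and 21726 and then 25561, 24111 and 23047. The groups overlapped here too, at 0.09 ± 0.06 (adjusted p = 0.507). Nolc1, a chaperone of snoRNPs, had 3384, 3612 and 3547 and then 3138, 3455 and 3395, at -0.08 ± 0.06 (adjusted p = 0.538). Npm3, a relative of Npm1, was at -0.07 ± 0.08. Directions were not settled by scaling: Ncl was at -0.0011 with the GC trend of the principal transcript removed, and Npm1 at -0.0087 with GC and length trends removed.

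Ncl and Npm1 were among the most abundant transcripts. Per kilobase of the principal transcript, Npm1 was the highest of the 49 at 14410 normalized reads per kb, followed by Ncl at 3676 and Rrp1 at 3384. The lowest were Wdr12 at 112.7 and Rrp1b at 193.5 normalized reads per kb. Summed over all 49, wildtype libraries held 171622 ± 2942 normalized reads and SFR KO libraries 167920 ± 1300 (mean ± SD, n = 3), a ratio of 0.978. Without Ncl and Npm1 the sums were 119173 ± 1553 and 113005 ± 622.5, a ratio of 0.948. In the sum over all 49, SFR KO 1 (169416) and wildtype 3 (169448) were nearly level. Without Ncl and Npm1 the groups were apart, with 117577 as the lowest wildtype and 113709 as the highest SFR KO value. Both genes had a difference above 0 and were left out after the data were seen, which itself lowers the ratio.

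**Figure D2:**
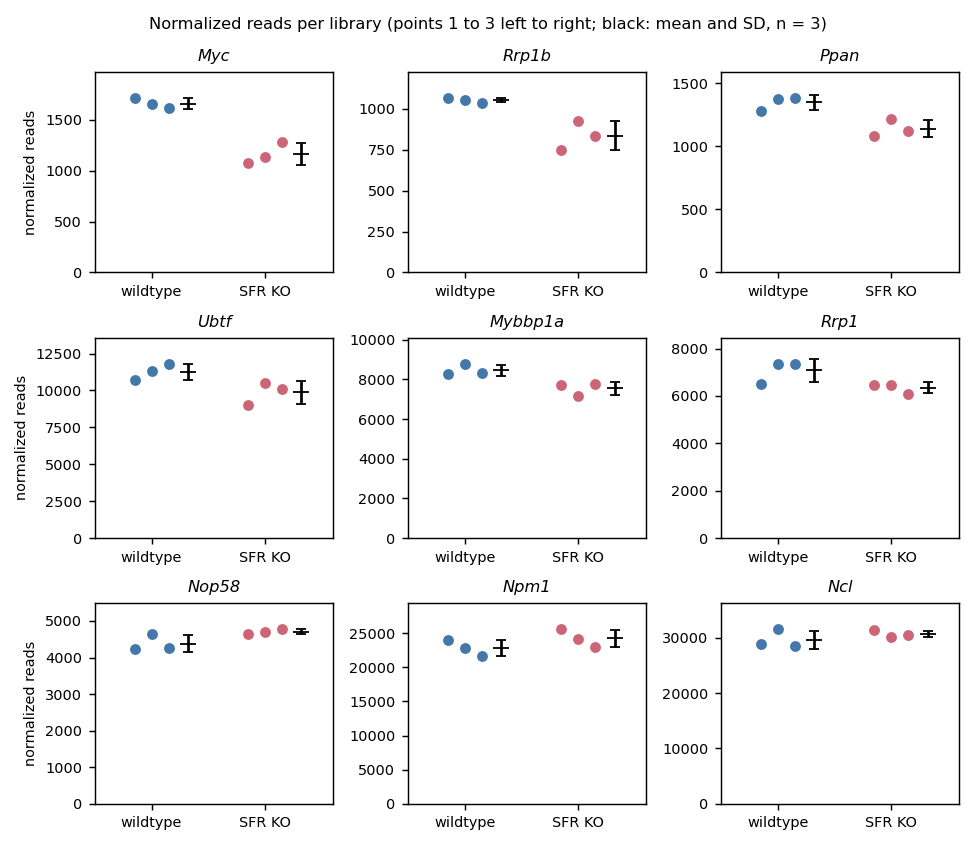
Normalized reads (vertical axes, from 0) of Myc and 8 ribosome biogenesis genes in the 3 wildtype and 3 SFR KO libraries, with the mean and SD in black. Myc, Rrp1b, Ppan, Ubtf, Mybbp1a and Rrp1 have every SFR KO point below every wildtype point, Nop58 has them above, and Npm1 and Ncl overlap.

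Genes for snoRNP proteins had mostly higher values. Of 8 genes, 6 had a difference above 0 (5 with GC and length trends removed), with a median of 0.03, and limma, edgeR and DESeq2 called none (0 at an unadjusted p under 0.05). All 4 genes of the H/ACA particles, which turn uridine into pseudouridine, were above 0: the synthase gene Dkc1 at 0.08 ± 0.05, Gar1 at 0.13 ± 0.08, Nhp2 at 0.02 ± 0.06 and Nop10 at 0.03 ± 0.08. With GC and length trends removed 1 of these 4 was below 0. The C/D particles, which methylate ribose, were split. Nop58, a core protein, had 4247, 4640.3 and 4258 normalized reads (wildtype 1 to 3) against 4646, 4707 and 4771 (SFR KO 1 to 3). SFR KO values were narrowly above wildtype 2, and the difference was 0.10 ± 0.05 (limma adjusted p = 0.367).

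Nop56, the paralogous core protein, went the opposite way with 3359.5, 3579.8 and 3484 normalized reads (wildtype 1 to 3) against 3242, 3317 and 3238 (SFR KO 1 to 3). Its groups did not overlap, at -0.09 ± 0.05 (limma adjusted p = 0.415). Rrp9, the U3 snoRNP protein needed for the first cuts of the precursor, had 730.2, 682.1 and 819.7 and then 693.7, 601.04 and 683.7. The groups overlapped, at -0.17 ± 0.10 (adjusted p = 0.42). Fbl (fibrillarin), the methyltransferase of these particles, was at 0.02 ± 0.06. The difference between Nop56 and Nop58 in direction was not tested.

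Small subunit factors were lower in value by little. Of 14 genes, 12 had a difference below 0, and the median was -0.06. With TMM and upper quartile scaling, which shift all genes together, 11 and 10 were below 0, while the share of all tested genes below 0 went from 50.7% to 49% and 44.9%. Limma, edgeR and DESeq2 called none, 1 of 14 (Rrp12, 7.14%) had an unadjusted p under 0.05, below the 9.07% of all tested genes in that direction. In 4 (Rrp12, Nob1, Tsr1 and Heatr1, 28.6%) the groups did not overlap, against 11.9% of all tested genes and 17.3% of abundant ones. Rrp12, which helps to export both subunits, had 1093, 1095 and 1069.5 normalized reads (wildtype 1 to 3) against 1019, 892.3 and 999.3 (SFR KO 1 to 3). SFR KO 2 was the lowest, and the difference was -0.16 ± 0.07 (limma adjusted p = 0.302). Nob1, the nuclease that makes the last cut in the small subunit's RNA, had 1161, 1074 and 1111 and then 1038, 1013 and 988.1. Its groups were apart, at -0.14 ± 0.06 (adjusted p = 0.332).

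Bysl, a small subunit assembly factor, had 1364, 1476 and 1589 normalized reads (wildtype 1 to 3) against 1287, 1309 and 1416 (SFR KO 1 to 3). These overlapped, at -0.14 ± 0.07 (limma adjusted p = 0.396). Wdr43, of the early processing complex, had 3911, 4109 and 3992 and then 4117, 4059.5 and 4181, at 0.04 ± 0.05 (adjusted p = 0.723). The factors Tsr1 (-0.09 ± 0.06) and Heatr1 (-0.06 ± 0.05) had small differences with groups that did not overlap. Of the other genes, Utp15, Ddx10, Nop14, Noc4l, Wdr75, Utp20 and Utp18 lay between -0.11 and -0.00, and Utp14a was at 0.04 ± 0.05.

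Large subunit factors made up 8 of the 12 genes with an unadjusted p under 0.05. Of 15 genes, 14 had a difference below 0, or 13 with that upper quartile shift or with GC and length trends removed, and the median was -0.14. With the GC trend removed the median was -0.09. In 8 of the 15 (Rrp1b, Ppan, Wdr12, Rrp1, Ddx18, Nop2, Bop1 and Noc2l) the groups did not overlap and the unadjusted p was under 0.05, against 11.9% and 9.07% of all tested genes in that direction. Among abundant genes those shares were 17.3% and 13.9%. The 15 had a median GC content of 54.2%, against 49.4% over tested genes. With the GC trend removed, 4 of the 15 had an unadjusted p under 0.05, against 13.9% of all tested genes in either direction. Limma and edgeR called none of the 15, and DESeq2 called Rrp1b. Whether this group differs from the other roles was not tested.

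Rrp1b, a nucleolar protein of the large subunit pathway (chromosome 17, 32036100 to 32062865, GRCm38), had the largest difference of the 49. It had 1064, 1054 and 1036 normalized reads (wildtype 1 to 3) against 747.9, 926.2 and 829.8 (SFR KO 1 to 3). Wildtype values were tight (1051 ± 14.1, SD, n = 3) and SFR KO values spread (834.6 ± 89.3), with SFR KO 1 the lowest. The log2 difference was -0.34 ± 0.09, or 0.791 times wildtype, with a limma adjusted p = 0.115, edgeR 0.126 and DESeq2 0.0318. In the authors' deposited table it was -0.33 ± 0.10 with an adjusted p = 0.0291. Without SFR KO 1 the difference was -0.26 (limma adjusted p = 0.0958). Its paralogue Rrp1 (chromosome 10, 78400384 to 78413043) was far more abundant, with 6517, 7356 and 7362 and then 6481, 6474 and 6090.5 normalized reads. Wildtype 1 lay just above SFR KO 1, and the difference was -0.16 ± 0.06 (limma adjusted p = 0.249).

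Ppan, a factor for maturation of large subunit RNA (chromosome 9, 20888175 to 20892178), had 1284, 1379 and 1383 normalized reads (wildtype 1 to 3) against 1084, 1215 and 1125 (SFR KO 1 to 3). The groups were apart, at -0.24 ± 0.07 or 0.846 times wildtype (limma adjusted p = 0.144, DESeq2 0.0913). Noc2l, of a complex that escorts large subunit precursors, had 3648, 3752 and 3770.3 and then 3430.01, 3397 and 3388. Its 2 ranges were narrow and apart, at -0.13 ± 0.05 (limma adjusted p = 0.22). Noc3l, its partner, was at -0.15 ± 0.09 with overlapping groups.

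The PeBoW complex, which Pes1, Bop1 and Wdr12 form to process large subunit RNA, was uneven. Bop1 was at -0.14 ± 0.05 and Wdr12 at -0.17 ± 0.06, while Pes1 was at -0.02 ± 0.05. The RNA methyltransferase gene Nop2 and the helicase gene Ddx18 were at -0.14 ± 0.06 and -0.15 ± 0.06. Wdr74, Gnl3 (nucleostemin) and Rrs1 lay between -0.11 and -0.07 with overlapping groups. Nop16 was at -0.02 ± 0.06 and Mrto4 at 0.00 ± 0.07.

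**Figure D3:**
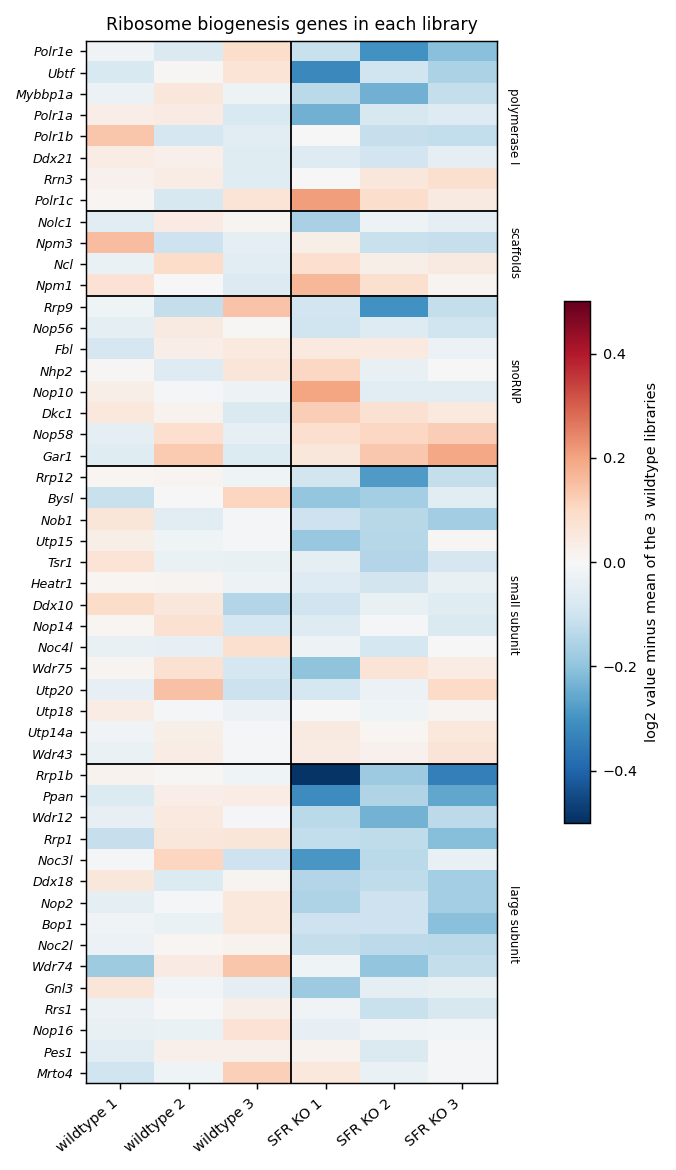
Each gene's log2 value in each library minus the mean of the 3 wildtype libraries, with genes in rows by role and libraries in columns (red higher, blue lower). SFR KO columns are blue for most large subunit rows, and the darkest cell is Rrp1b in SFR KO 1.

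The libraries did not carry the pattern evenly over genes. Of the 49 genes, 38 had their highest value in a wildtype library, and 33 their lowest in an SFR KO library. By library, the highest value fell in wildtype 1, 2 and 3 for 11, 12 and 15 genes and in SFR KO 1, 2 and 3 for 5, 1 and 5. The wildtype shares were 22.4%, 24.5% and 30.6%, against 15.9%, 16.7% and 16.0% of all tested genes. The lowest value fell in SFR KO 1, 2 and 3 for 22.4%, 26.5% and 18.4% of the 49, against 22.4%, 14.3% and 16.7% of all tested genes. Over all tested genes, SFR KO 1 held the highest value for 20% and the lowest for 22.4%, more than any other library. The median gene of the 49 lay at -0.07, -0.09 and -0.05 on the log2 scale from the wildtype mean in SFR KO 1, 2 and 3. It lay at -0.02, 0.01 and -0.01 in wildtype 1, 2 and 3. The 3 SFR KO medians were all below the 3 wildtype medians. Large subunit genes peaked in wildtype 3 for 10 of 15 genes, and none of the 15 peaked in an SFR KO library. Without SFR KO 1, limma again called 0 of the 49, although it then called 3.7% of all genes.

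Base composition moved with the differences. Genes are no independent replicates, so this is a description. Over the 49, the rank correlation between the log2 difference and the GC content of the longest transcript was -0.384 (Spearman's rho), and over tested genes it was -0.272. The 13 genes with a difference above 0 had a median GC content of 46.5%, and the 36 below 0 one of 51.1%. With the trend of each library removed, rho over the 49 was -0.013, limma called 0 of the 49 (0.148% of all genes), 35 of 49 were still below 0, and the median was -0.07. At an unadjusted p under 0.05 there were then 8 of 49, against 13.9% of genes, and 6 of the 8 (Rrp1b, Ppan, Wdr12, Ddx18, Polr1e and Mybbp1a) were among the 12 before. The other two were Polr1c and Gar1, with higher values in SFR KO libraries. After the correction Rrp1b was at -0.30 and Ppan at -0.18 (limma adjusted p = 0.186 and 0.286).

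**Figure D4:**
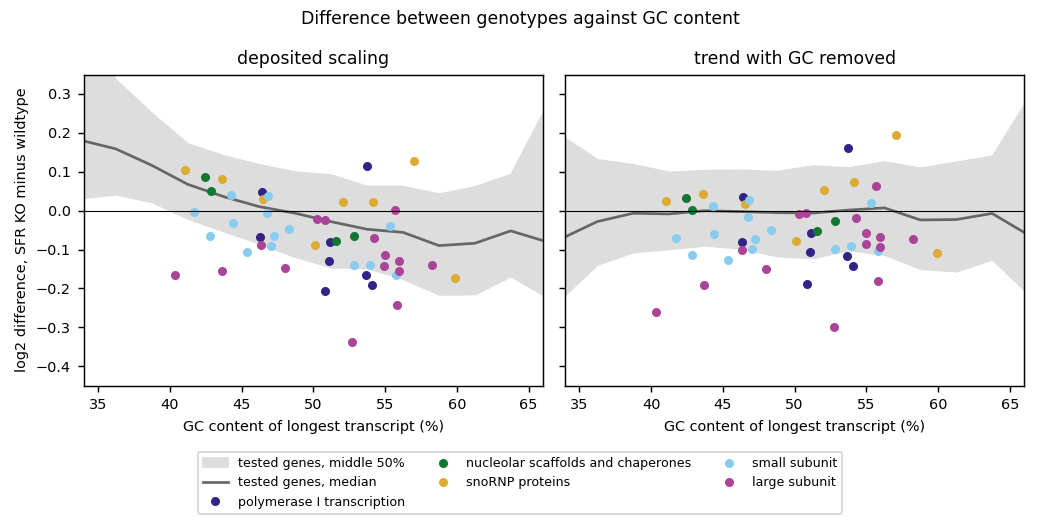
Log2 difference, SFR KO minus wildtype, against GC content of the longest transcript, for the 49 genes (points, coloured by role) and tested genes (median line and middle 50% in grey, in bins of GC content). In the left panel both slope downward; in the right panel, with each library's GC trend removed, the grey line is near 0 and most points still lie below it.

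Further genes of the same process were measured too. The lists were chosen from textbook knowledge, but with earlier results of these data known, so they are no independent support. In them 106 further ribosome biogenesis genes could be tested, and 70 of these had a difference below 0, with a median of -0.04. Limma, edgeR and DESeq2 called 0 of the 106, and 12 had an unadjusted p under 0.05 (11.3%), 10 lower and 2 higher, under the 16.1% of all tested genes. The groups did not overlap for 16 with SFR KO lower (15.1%) and for 3 with SFR KO higher (2.83%), against 11.9% and 9.78% of all tested genes. The 45 other large subunit factors had a median of -0.05, with 31 below 0, and the 42 other small subunit factors one of -0.02, with 27 below 0. Medians were 0.00 over 10 other polymerase I genes and -0.07 over 9 snoRNP assembly genes.

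The gene with the smallest p in each list was lower in SFR KO libraries with groups that did not overlap, and missed limma's threshold. Taf1c, of the complex that selects the polymerase I promoter, was at -0.24 ± 0.08 (limma adjusted p = 0.22). Taf1d of the same list went the other way, at 0.25 (limma adjusted p = 0.249), and 5 of these 10 genes were above 0. Dhx37, a helicase of the small subunit pathway, was at -0.17 ± 0.06 (adjusted p = 0.24). Nol9, a kinase of large subunit RNA processing, had 3328, 3269.99 and 3359.96 normalized reads (wildtype 1 to 3) against 2874, 2972 and 2972 (SFR KO 1 to 3). Those groups stood well apart, at -0.18 ± 0.05 (adjusted p = 0.131). Tcof1 (treacle), the nucleolar partner of polymerase I and snoRNPs, was at -0.18 ± 0.06 (adjusted p = 0.22).

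Growth genes outside the ribosome pathway that are often counted as MYC targets also had mostly lower values. Of 45 tested genes 32 (71.1%) had a difference below 0, against 50.7% of all tested genes and 55.9% of abundant ones. The count was 28 with the GC trend removed and 27 with upper quartile scaling, which shifts all genes together. The median was -0.05, or -0.04 with the GC trend removed. Limma and edgeR called 0 of them and DESeq2 4, where it called 4.84% of all genes. An unadjusted p under 0.05 was found for 11, 9 lower and 2 higher (24.4%, against 16.1% of all tested genes and 21.5% of abundant ones). The smallest p was that of Fads2, a fatty acid desaturase gene, at -0.43 ± 0.09 (limma adjusted p = 0.0634).

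**Figure D5:**
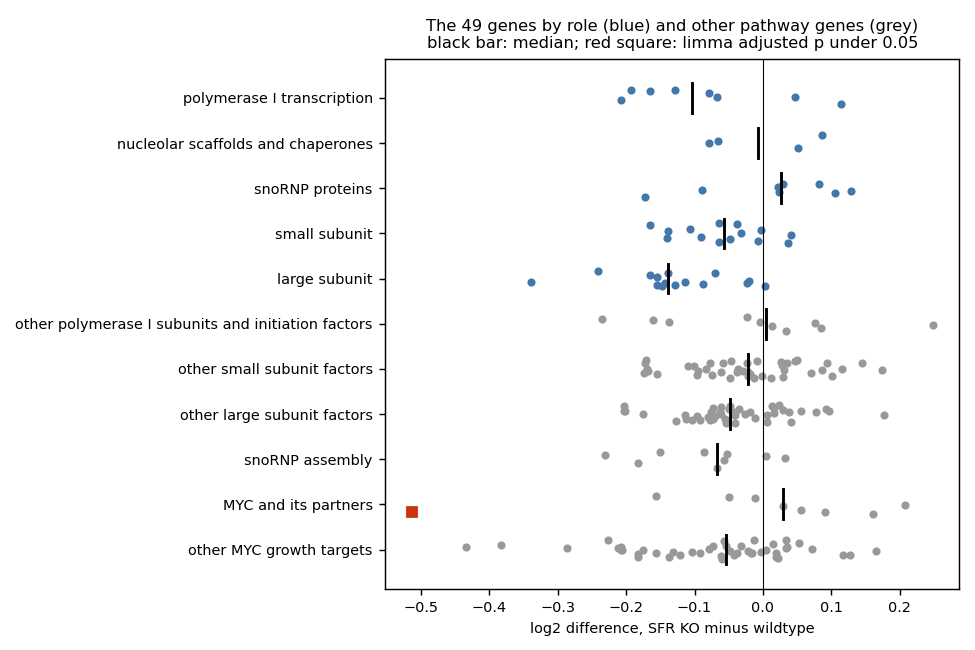
Log2 differences of single genes, SFR KO minus wildtype, for the 49 genes by role (blue) and for other genes of the pathway (grey), with list medians as black bars and the gene past limma's threshold as a red square. The square is Myc at -0.51, and the list medians run from -0.14 for large subunit factors to 0.03.

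Some of these genes also hold small nucleolar RNA genes. In GENCODE release M21, 8 of the 49 (Ncl, Nop56, Nop58, Dkc1, Gnl3, Ppan, Tsr1 and Wdr43) contain 23 annotated snoRNA genes on their own strand. That is 16.3% of the 49, against 200 of 11417 tested protein-coding genes (1.75%). The snoRNAs themselves were hardly seen, with a mean of at most 3.98 normalized reads. Exons of 9 of the 49 (Nop56, Rrp9, Dkc1, Nhp2, Heatr1, Bysl, Tsr1, Bop1 and Gnl3) overlap those of a gene on the other strand that reached at least 0.1 times their level. One case is Bysl, whose exons share 361 bases with those of Ccnd3, a cyclin gene at 11761 normalized reads. No source used here gives the strand setting of the counting, and the values of these 9 are therefore uncertain. Reads of Npm1 and other abundant genes can also be shared with processed pseudogenes.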

How the data were processed

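RNA was sequenced from 3 wildtype and 3 SFR KO samples, grouped by the genotype label and numbered in accession order. The submitters' processing notes list GRCm38 as the build, and STAR 2.5, featureCounts 1.5 and DESeq2 1.14.1 as tools. No source used here gives the annotation release, strand setting or filters. The authors deposited read counts normalized to library size (a signal), their mean, and, per gene, a log2 fold change with its standard error, a test statistic (a score) and p-values. All deposited values were whole multiples of each library's smallest value (100% within a tolerance of 1e-06), which gave the reads for edgeR and DESeq2; replicates were no duplicates.

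The main test was limma 3.58.1 (R 4.3.3; trend, two-sided) on log2(normalized count + 1), genotype as factor, mean at least 10; this scale understates changes of low genes. Alternatives were pseudocounts 0.5 and 5, minimum means 1 and 50, TMM and upper quartile scaling, edgeR 4.0.16 (quasi-likelihood), DESeq2 1.42.0, sample weights, removal of GC or GC and length trends (natural splines, 4 degrees of freedom), each library left out and, added after the data were seen, GC content of the principal transcript. The fit was tested on simulated counts. The genes and lists were chosen with earlier results of these data known. Also set after the data were seen were the 1.25-fold bound, the background of abundant genes, the sums without Ncl and Npm1, and the motif CACGCG. Values per library are given, per role, for the 3 genes with the smallest p and the most abundant one, and for Myc; windows were chosen as stated beside them. Protein sequences were not used here, and 1 marker gene is not reported here.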

Additional observations from a re-analysis of the deposited data

How the results depend on the processing

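Over 18 alternatives, limma or its substitutes called 0 of the 49 genes, except DESeq2 (1, Rrp1b) and sample weights (1, Mybbp1a). The count at an unadjusted p under 0.05, 12 with the reported settings, was 5 with GC and length trends removed (10.2%, against 13.1% of all genes) and 5 with upper quartile scaling (10.2% against 16.0%), and 4 to 12 with a library left out. It was 4 without wildtype 3 (8.16% against 13.0%) and 6 without SFR KO 2 (12.2% against 11%) or SFR KO 3 (12.2% against 13.1%), so the share was then near or below that of all genes. Genes lower with no overlap numbered 10 after removal of GC and length trends. With a library left out they numbered 16 to 22. Leaving out a library cannot make separate groups overlap, for any gene, so this count could not fall below 16. It therefore says nothing about how stable the pattern is. The count below 0 was 33 to 37, with a library left out. The median (-0.0700) was -0.0868 to -0.0569 with a library left out, -0.0522 with GC and length trends removed, -0.0467 with upper quartile scaling, -0.0657 with the principal transcript GC trend removed, -0.0634 with TMM scaling, -0.0628 with edgeR and -0.0778 with sample weights. Upper quartile and TMM scaling shifted all genes: the median over all tested genes went from -0.0030 to 0.0203 and 0.0037, and the gap of the 49 to it stayed. The values are moves beyond the spread of the libraries' medians around each gene's mean (SD 0.00402). A wider SD of 0.0172, from deviations from the wildtype mean, was tried after these moves were seen and then dropped; by it only the GC and length and the upper quartile medians moved. Myc was at -0.58 to -0.46 with a library left out, and missed the threshold after removal of GC (-0.47, limma adjusted p = 0.0818), GC and length (-0.47, 0.0877) or principal transcript GC trends (-0.45, 0.0961); the cause was not tested. Of the 17 genes given by library, 13 were below 0 and 2 above 0 in every setting. The exceptions were Ncl (-0.0011 after removal of the principal transcript GC trend) and Npm1 (-0.0087 after removal of GC and length trends). No paired analysis was possible because the labels give the samples no shared replicate numbers.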
